A study of Mus musculus with 12 samples.

Results

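The 9 genes described here were chosen as genes of the gap and autotypic junctions of myelin, of 25700 genes listed in the count table. They were taken by symbol and comprised the connexins Gjb1, Gjc3 and Gja1, the claudin Cldn19, the adherens junction genes Cdh1 and Ctnnb1, and the scaffold genes Tjp1, Mpdz and Pard3. All 9 were detected in every library and passed the filter on low counts, together with 18597 genes in all. Schwann cells were sorted by FACS from sciatic nerves of mice at postnatal day 5, with 3 gates and 4 libraries per gate. The allSC gate held all eYFP+ Schwann cells, the mSC gate those with high side scatter (SSC-A), enriched for myelinating cells, and the nmSC gate those with low side scatter, enriched for cells that were not myelinating. Every mouse carried a Cre transgene active in the Schwann cell lineage, a Rosa26 loxP-stop-loxP eYFP reporter and a βAct-DsRed transgene, on the C57bl/6J background, and mice of both sexes entered each gate. The side scatter gates enriched for a cell state and did not isolate it. No treatment, and no targeted allele other than the Rosa26 reporter, is described for these mice.

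Myelin is a spiral of Schwann cell membrane. Cytoplasm remains in places such as its outer and inner rims, the paranodal loops and the channels called Schmidt-Lanterman incisures. Neighbouring turns of this one membrane are held together by junctions that a cell makes with itself, called autotypic junctions. Gap junctions among them are built from connexins and open a short radial path between the outer and inner cytoplasm, tight junctions contain claudins, and adherens junctions contain E-cadherin bound to catenins. PDZ scaffolds such as ZO-1 and MUPP1 tie these membrane proteins to the cytoskeleton. Loss of function of human GJB1 causes the X-linked form of Charcot-Marie-Tooth neuropathy.

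Total counts ran from 8180927 to 16918122 per library. The Schwann cell markers were present in each gate: Sox10, the lineage transcription factor, had a mean of 266 CPM in nmSC and 267 CPM in both allSC and mSC. The myelinating markers summed to 18389-21005 CPM in nmSC, 90200-100501 CPM in allSC and 155264-212630 CPM in mSC, and the markers of immature cells to 1303-1747, 842-916 and 130-180 CPM. The fibroblast and immune lists each summed to 20.3 CPM or less in any library, the endothelial list to 31.4 CPM or less and the mural list to 39.2 CPM or less. The endothelial sum was higher in mSC (20.98-31.4 CPM) than in nmSC (9.43-17.6 CPM) and was led by Kdr, while Pecam1 and Cdh5, which define endothelium, had mSC means of 1.25 and 0.428 CPM. The mural sum was also higher in mSC (26.0-39.2 CPM) than in nmSC (11.1-12.3 CPM) and was led by Tagln, at means of 24.9 and 4.73 CPM, while Acta2 and Rgs5 had mSC means of 0.832 and 1.77 CPM. The perineurial list had the largest sum of these, at 203-338 CPM in nmSC, 230.1-251 CPM in allSC and 136-216 CPM in mSC, most of it from Itgb4, while Lypd2 was at 0 in every mSC library. Their part in the results was not tested. The libraries mSC 1 and mSC 4 stood apart. Relative to the libraries of its own gate, the median log2 level of transcripts over 5000 bases minus that of transcripts under 2000 bases was 0.68 in mSC 1 and -0.92 in mSC 4, against -0.13 to 0.23 in the other 10 libraries. The tests of the 9 genes and the counts of called genes that involve mSC were therefore also computed with both left out. So were the position of allSC and the ratio of Gjc3 to Gjb1. Family shares, other ratios, levels and nearest profiles were computed on all libraries only.

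The sequences upstream of the connexin genes and of Cldn19 are shown because these genes moved between the gates in both directions. They come from RefSeq (GRCm38.p6), which held a promoter entry for 7 of the 9 genes, and each window stops before any exon annotated for the gene. In nerve, Gjb1 is known to be transcribed from a start close to its coding exon, and SOX10 and EGR2 are known to activate it, so that the last of 4 listed windows of Gjb1 is given. The counts are per gene and do not show which start was used. Capitals mark matches on either strand to ACAANG (the SOX motif), GTGGGNG (the EGR motif) or TGANTCA (the AP-1 motif), and the matches shown did not overlap.
Gjb1 (chrX:101383482-101383731, plus strand): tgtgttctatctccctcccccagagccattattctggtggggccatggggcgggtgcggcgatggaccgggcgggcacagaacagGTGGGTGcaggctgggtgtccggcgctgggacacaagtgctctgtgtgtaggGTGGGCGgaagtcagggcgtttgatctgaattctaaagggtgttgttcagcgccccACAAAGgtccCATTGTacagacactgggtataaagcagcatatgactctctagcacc
Gjc3 (chr5:137963099-137963348, minus strand): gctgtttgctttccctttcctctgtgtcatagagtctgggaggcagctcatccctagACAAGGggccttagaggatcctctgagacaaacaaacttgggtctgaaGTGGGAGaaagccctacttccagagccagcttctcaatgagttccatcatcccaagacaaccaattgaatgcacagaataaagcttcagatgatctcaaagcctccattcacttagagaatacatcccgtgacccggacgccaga
Gja1 (chr10:56377050-56377299, plus strand): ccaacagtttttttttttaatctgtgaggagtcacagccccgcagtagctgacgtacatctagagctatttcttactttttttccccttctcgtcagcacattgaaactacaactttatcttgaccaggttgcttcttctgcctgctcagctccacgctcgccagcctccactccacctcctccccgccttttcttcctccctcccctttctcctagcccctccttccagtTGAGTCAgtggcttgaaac
Cldn19 (chr4:119255191-119255413, plus strand): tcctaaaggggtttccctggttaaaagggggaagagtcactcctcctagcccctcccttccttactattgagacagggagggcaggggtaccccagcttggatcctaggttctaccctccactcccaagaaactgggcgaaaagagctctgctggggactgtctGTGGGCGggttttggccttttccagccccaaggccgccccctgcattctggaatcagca
The Gjb1 window held 2 SOX matches, which began 57 and 47 bases before its end, and 2 EGR matches, at 165 and 113 bases. Gjc3 held 1 SOX match at 193 bases and 1 EGR match at 145 bases, Cldn19 held 1 EGR match at 59 bases, and Gja1 held 1 AP-1 match at 19 bases. Of all 32851 listed windows cut to the same 250 bases, 36.3% held the SOX motif, 28.1% the EGR motif and 6.75% the AP-1 motif, and 25.1% of windows cut to 223 bases, the length for Cldn19, held the EGR motif. Windows of other genes are not shown: that of Tjp1 held 1 EGR match, that of Pard3 held 1 SOX match, and that of Ctnnb1 held no match. For Gjb1, window 1 held 1 SOX match and no EGR match, and windows 2 and 3 held no match. A match is a string of letters and not a measured binding site.

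Between mSC and nmSC, 7 of the 9 genes passed an adjusted p of 0.05, 6 higher and 1 lower in mSC, against 40.5% of all genes tested (20.4% higher and 20.2% lower). Gjb1, Gjc3, Cldn19, Cdh1, Mpdz and Tjp1 were higher in mSC, Gja1 was lower, and Ctnnb1 and Pard3 did not pass the test. The count was also 7 without mSC 1 and mSC 4. Between mSC and allSC, 5 genes passed (4 higher and 1 lower, with 17.6% of all genes called, 8.76% higher and 8.80% lower), and 7 without mSC 1 and mSC 4. Between allSC and nmSC, 6 passed (5 higher and 1 lower, with 10.4% called, 7.54% higher and 2.83% lower). The libraries of mSC and nmSC did not overlap for 6 of the 9 genes, as for 34.2% of all genes. Those of mSC and allSC did not overlap for 3 genes (22.5% of all genes), and those of allSC and nmSC for 6 (19.3%). The 3 comparisons share libraries and are not independent of each other. The median log2 fold change over the 9 genes was 1.11 for mSC against nmSC, beside -0.16 over all genes tested. The balance of calls rested on the scaling: 50.3% of called genes were higher in mSC than in nmSC with TMM factors, 12.2% with the library size alone and 20.8% with a library size without the 50 most counted genes. These other scalings moved the median of all genes to -0.73 and -0.53, and for mSC against nmSC each of the 8 genes other than Gja1 stayed above that median. The share of called genes that were higher went from 49.9% to 9.43% and 18.6% for mSC against allSC, and from 72.7% to 25.2% and 42.9% for allSC against nmSC. Fewer cells of a kind and less RNA per cell cannot be told apart in such libraries.

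**Figure D1:**
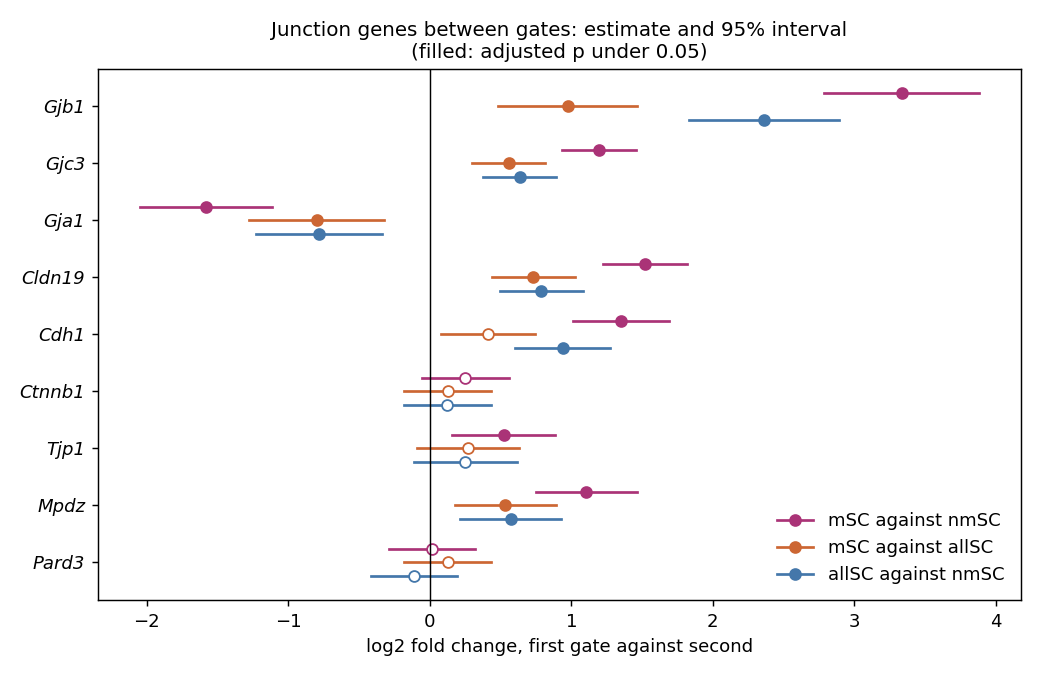
Log2 fold change (horizontal axis) of each of the 9 genes (rows) in the 3 comparisons of gates (colours), with the 95% interval as a line and filled points for an adjusted p under 0.05. Gjb1 lies farthest to the right at 3.33 for mSC against nmSC, and Gja1 is the gene whose 3 intervals all lie below 0.

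Gjb1 encodes Cx32, the connexin of incisures and paranodes (chrX:101376378-101385629, plus strand). It differed most among the 9 genes between the sorted populations, at 111 ± 43.0 CPM in mSC and 11.1 ± 3.03 CPM in nmSC (SD, n = 4), a 10.1-fold difference. The 4 nmSC libraries held 15.6, 9.88, 9.05 and 9.76 CPM, the allSC libraries 53.5, 55.7, 53.0 and 64.0 CPM, and the mSC libraries 53.1, 121, 114 and 157 CPM. All mSC libraries lay above all nmSC libraries, but mSC 1 lay within the range of allSC. The log2 fold change was 3.33 (SE 0.26, adjusted p = 3.99e-09) for mSC against nmSC, 2.36 (SE 0.25, adjusted p = 1.90e-06) for allSC against nmSC and 0.97 (SE 0.23, adjusted p = 0.00681) for mSC against allSC. Gjb1 has a short transcript (1585 bases at the longest), and its lowest and highest mSC values were in mSC 1, where short transcripts were low, and mSC 4, where they were high. Without these libraries the fold change was 3.41 (SE 0.17) against nmSC and 1.08 (SE 0.16) against allSC.

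Profiles over the 12 libraries were compared as the root mean square difference of centred log2(CPM + 1) values among 9397 genes with a mean of at least 10 CPM. Among the profiles nearest to that of Gjb1 were those of Tm7sf2 (0.301) and Msmo1 (0.313), both enzymes of cholesterol synthesis. These distances are descriptions, and the libraries share the length shift given above.

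Gjc3 encodes Cx29, a connexin of the innermost Schwann cell membrane and of incisures (chr5:137953461-137963098, minus strand). It was the most abundant of the 9 genes in each gate, and rose with enrichment for myelinating cells. Its libraries held 812, 730.0, 833 and 901 CPM in nmSC, 1228, 1178, 1273 and 1409 CPM in allSC, and 1615, 1757, 1900.3 and 2224 CPM in mSC, and no pair of gates overlapped. The log2 fold change was 1.19 (SE 0.12, adjusted p = 2.29e-07) for mSC against nmSC, 0.56 (SE 0.12, adjusted p = 0.00340) for mSC against allSC and 0.63 (SE 0.12, adjusted p = 0.00166) for allSC against nmSC. Without mSC 1 and mSC 4 the first was 1.15 and the second 0.54. With the library size alone, mSC against allSC was not called (log2 fold change 0.24, adjusted p = 0.0722). The nearest profiles were those of Tspan3 (0.0763), a tetraspanin, Vps29 (0.0841), a retromer subunit, and Rell1 (0.0852).

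Gja1 encodes Cx43, a connexin of many cell types including fibroblasts and immature glia (chr10:56377330-56402513, plus strand). It was the only one of the 9 genes that was lower in mSC, and it was low throughout. The nmSC libraries held 9.71, 10.5, 9.20 and 15.6 CPM, the allSC libraries 7.94, 5.76, 5.94 and 6.65 CPM, and the mSC libraries 4.89, 3.30, 3.81 and 2.87 CPM, from 23 to 72 counts in mSC. The gates did not overlap, and the mean of nmSC was 2.99-fold that of mSC by the fit (log2 fold change -1.58, SE 0.22, adjusted p = 1.23e-05). The fold change was -0.80 for mSC against allSC (adjusted p = 0.0198) and -0.78 for allSC against nmSC (adjusted p = 0.0219). The former was not called without allSC 1 (adjusted p = 0.0686) or mSC 2 (0.0624), nor the latter without nmSC 4 (0.110), allSC 2 (0.0783), allSC 3 (0.0724) or allSC 4 (0.0552). The fibroblast list summed to 7.26-10.2 CPM in nmSC and 6.22-18.4 CPM in mSC, and its part in the Gja1 levels was not tested. The nearest profiles were those of Pcdh9 (0.176), Adgrl3 (0.184) and Tenm3 (0.187), all adhesion proteins of the cell surface.

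Per length, the connexins changed in make-up between the gates. Summed over the 20 connexin genes, RPKM on the union of exons was 204 ± 16.5 in nmSC, 332 ± 25.2 in allSC and 500.3 ± 83.1 in mSC. Gjc3 held 92.0% of this sum in nmSC, 87.8% in allSC and 86.3% in mSC, while Gjb1 held 3.19% ± 0.890, 9.97% ± 0.476 and 12.7% ± 3.47. The ratio of Gjc3 to Gjb1 in RPKM was 20.4, 29.0, 36.1 and 36.2 in the nmSC libraries and 8.998, 8.29, 9.40 and 8.62 in the allSC libraries. In the mSC libraries it was 11.9, 5.68, 6.53 and 5.56. The ratio in every nmSC library was higher than in any library of the other gates, while allSC and mSC overlapped. Gja1 held 0.535% of the sum in nmSC, 0.193% in allSC and 0.0759% in mSC, or 1.28%, 0.467% and 0.184% with the longest transcript as the length.

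**Figure D2:**
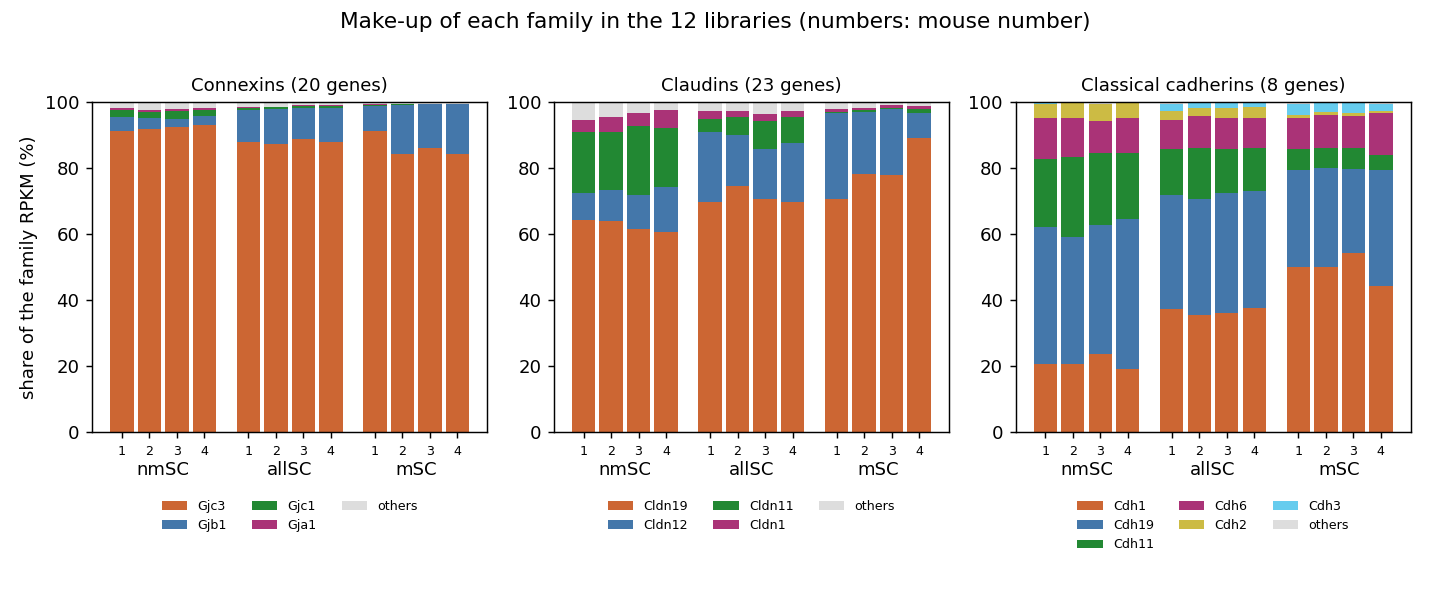
Share of the summed RPKM of each family (percent, vertical axis) held by named genes in each of the 12 libraries (bars, grouped by gate and numbered as in the sample titles), for connexins, claudins and classical cadherins. Gjb1 widens from a mean of 3.19% in nmSC to 12.7% in mSC, Cldn11 falls from 18.7% to 0.611%, and Cdh1 widens from 21.1% to 49.6%.

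Of the other 20 connexin and pannexin genes, 10 passed the filter, and of these none was higher and 4 were lower in mSC than in nmSC. The calls made up 40% of the 10, beside 40.5% of all genes tested (20.4% higher and 20.2% lower). Gjc1 fell by 1.93 on the log2 scale (SE 0.17, adjusted p = 2.55e-08), from 20.9 ± 3.39 to 5.49 ± 0.574 CPM. Panx1, which forms channels that release ATP, fell by 0.57 (SE 0.12, adjusted p = 0.00110). Gja10 fell by 1.21 (adjusted p = 0.0432) at means of 1.42 and 0.630 CPM, near the floor of 3 counts, which was 0.177-0.367 CPM. Panx3 was the fourth gene called, named here after its values were seen, at a log2 fold change of -1.57. Its means were 1.29 CPM in nmSC and 0.423 CPM in mSC, also near that floor. Without nmSC 2, and likewise without mSC 2, 2 of the 10 were called, and without mSC 1 and mSC 4 together 3 were. Gjb1 and Gjc3 were the connexins called higher in mSC.

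Cldn19 encodes claudin-19, the tight junction protein of mesaxons, incisures and paranodal loops (chr4:119255414-119262438, plus strand). It rose with enrichment for myelinating cells. The nmSC libraries held 331, 305, 340.0 and 297 CPM, the allSC libraries 508, 573, 563 and 558 CPM, and the mSC libraries 683, 913, 870.1 and 1187 CPM. No gates overlapped, and the mSC values spread the most. The log2 fold change was 1.52 (SE 0.14, adjusted p = 5.20e-08) for mSC against nmSC, 0.73 (SE 0.14, adjusted p = 0.00101) for mSC against allSC and 0.79 (SE 0.14, adjusted p = 0.000696) for allSC against nmSC. Without mSC 1 and mSC 4, the lowest and the highest, they were 1.48 and 0.72 for the comparisons that hold mSC. An antisense gene, Gm12927, overlaps 90 exonic bases of Cldn19, and reads there cannot be told apart without strand. The nearest profiles were those of Cltb (0.0827), a clathrin light chain, Slc48a1 (0.0857), a heme transporter, and Tecr (0.112), an enzyme of long chain fatty acid synthesis.

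Among the claudins, Cldn19 held 62.5% ± 1.85 of the summed RPKM of 23 genes in nmSC, 71.1% ± 2.25 in allSC and 78.8% ± 7.66 in mSC. The share ran from 69.6% to 74.4% in allSC and from 70.5% (mSC 1) to 89.0% (mSC 4) in mSC, so that these gates overlapped. Of the other 22 claudins, 9 passed the filter, 2 higher and 3 lower in mSC than in nmSC. The calls made up 55.6% of the 9, beside 40.5% of all genes tested. Cldn12 was higher (log2 fold change 1.91, SE 0.22, adjusted p = 1.01e-06), at 52.6 ± 11.5 CPM in nmSC and 198 ± 66.7 CPM in mSC. Cldn11, the claudin of oligodendrocyte myelin, fell by 3.78 (SE 0.34, adjusted p = 3.08e-08), from 41.9 ± 6.19 to 3.23 ± 2.03 CPM, and its share of claudin RPKM went from 18.7% in nmSC through 6.42% in allSC to 0.611% in mSC. Cldn1, a claudin of the perineurium, fell by 1.27 (adjusted p = 2.61e-05), from 24.5 to 10.3 CPM. The other perineurial markers did not move together: Itgb4 had means of 206 and 127 CPM, Slc2a1 of 37.0 and 56.9 CPM, and Lypd2 and Krt19 stayed under 1 CPM. The remaining calls, named after their values were seen, were Cldn3 and Cldn10, both with means of 1.11 CPM or less. Cldn5, the endothelial claudin, did not pass the filter.

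**Figure D3:**
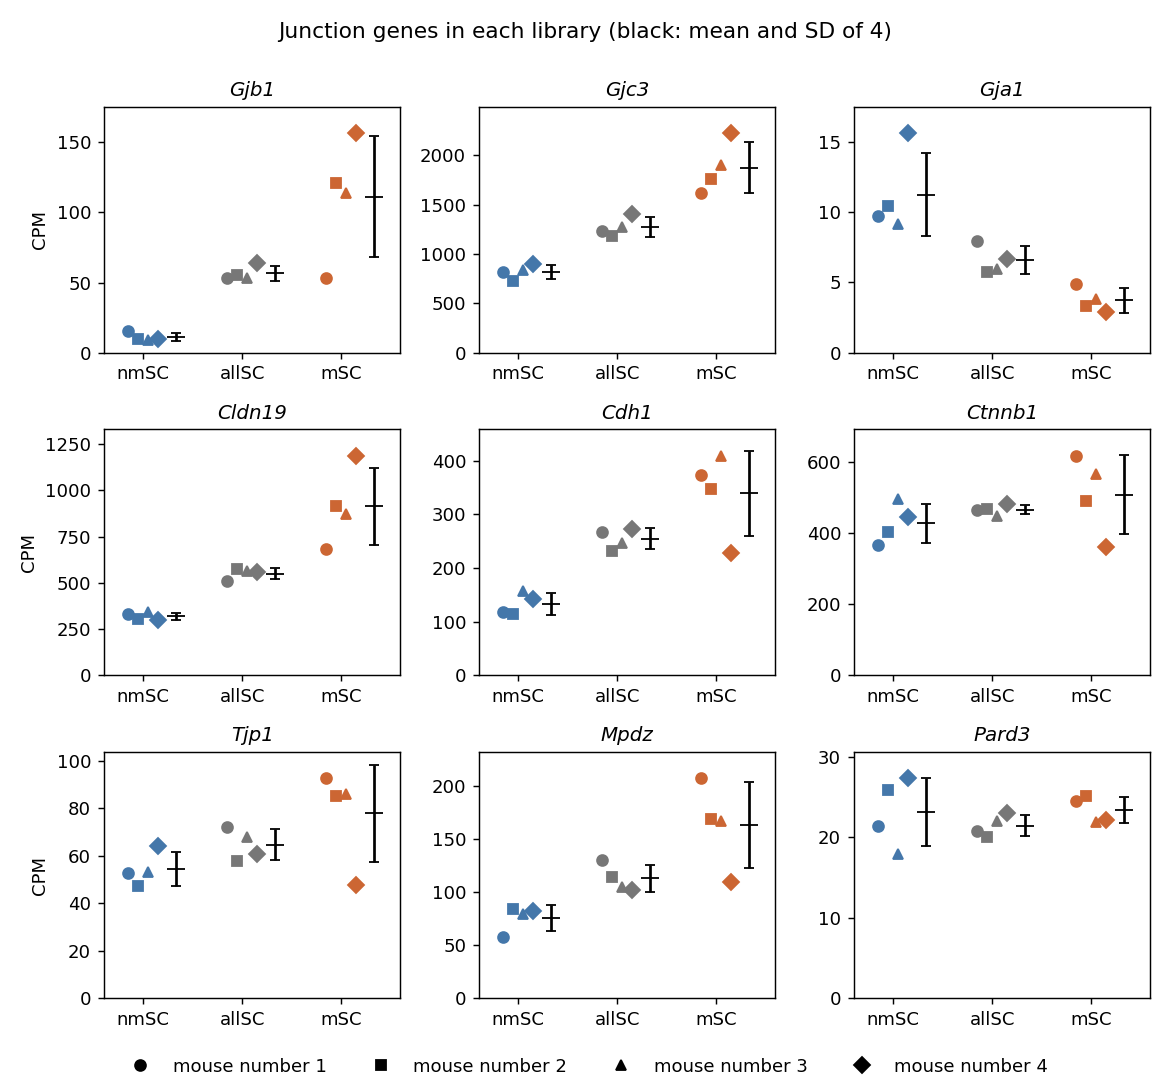
CPM (vertical axes, from 0) of the 9 genes in the 3 gates, 1 point per library with the shape giving the mouse number, and the mean and SD of 4 libraries in black. Gjc3, Cldn19 and Gja1 separate the gates without overlap, while in Tjp1 the library mSC 4 (47.6 CPM) falls among the nmSC libraries.

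Cdh1 encodes E-cadherin, the adhesion protein of autotypic adherens junctions (chr8:106603351-106670246, plus strand). It was higher in mSC and in allSC than in nmSC. The nmSC libraries held 118, 114, 157 and 143 CPM, the allSC libraries 267, 232, 247 and 273 CPM, and the mSC libraries 374, 346, 409 and 228 CPM. The nmSC libraries lay below all others, and mSC 4 lay below every allSC library. The log2 fold change was 1.35 (SE 0.16, adjusted p = 1.41e-06) for mSC against nmSC and 0.94 (SE 0.16, adjusted p = 0.000463) for allSC against nmSC. For mSC against allSC it was 0.41 (SE 0.16, adjusted p = 0.0796, 95% interval 0.08 to 0.75), and 0.59 (SE 0.12, adjusted p = 0.00107) without mSC 4. The closest profiles were those of Endod1 (0.0672), Arhgap19 (0.0875), a GTPase activating protein, and Cemip2 (0.0926), a cell surface hyaluronidase.

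Ctnnb1 encodes β-catenin, which binds the tail of E-cadherin and also carries Wnt signals (chr9:120929216-120960507, plus strand). It did not pass the test in any comparison. The nmSC libraries held 367, 403, 496 and 444 CPM, the allSC libraries 466, 467, 448 and 482 CPM, and the mSC libraries 617, 492, 565 and 359.9 CPM. The gates overlapped, with mSC 1 the highest and mSC 4 the lowest of all 12. The log2 fold change for mSC against nmSC was 0.25 (95% interval -0.06 to 0.56, adjusted p = 0.175), and 0.38 (adjusted p = 0.00885) without mSC 4. With the library size alone it was -0.30 (adjusted p = 0.100), which was 0.43 above the median of all genes. The values are uncertain, since Ctnnb1 shares 759 exonic bases with Ulk4 on the other strand, which had 28.7% as many counts.

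Of the other 20 adherens junction genes, 19 passed the filter, 5 higher and 7 lower in mSC than in nmSC. The calls made up 63.2% of the 19, beside 40.5% of all genes tested. The classical cadherins differed in direction. Cdh3 (P-cadherin), whose gene lies 46053 bases from Cdh1, had a log2 fold change of 4.26 (SE 0.29, adjusted p = 6.40e-10), at 0.982 ± 0.128 CPM in nmSC, 10.8 ± 3.32 CPM in allSC and 18.9 ± 5.86 CPM in mSC. Cdh2 (N-cadherin), a cadherin of immature Schwann cells, fell by 2.40 (SE 0.20, adjusted p = 1.27e-08), from 51.8 ± 10.4 to 9.74 ± 2.89 CPM. Cdh11 fell by 1.76 (SE 0.17, adjusted p = 1.10e-07), from 265 ± 28.7 to 78.0 ± 21.9 CPM. The RPKM ratio of Cdh1 to Cdh2 was 4.11-4.88 in the nmSC libraries, 12.2-14.4 in allSC and 51.6-73.0 in mSC, with no overlap. Of the summed RPKM of 8 classical cadherins, Cdh1 held 21.1% ± 1.82 in nmSC, 36.5% ± 1.03 in allSC and 49.6% ± 4.06 in mSC, while the sum itself was 138 ± 19.8, 152 ± 7.10 and 148 ± 24.6. Cdh19, named after its values were seen, held the largest share in nmSC (41.0% ± 3.01) and 29.9% ± 3.86 in mSC, and fell by 0.38 (SE 0.14, adjusted p = 0.0301). Cdh6, named likewise, held 11.1% and 10.5%, with a log2 fold change of 0.0061 (adjusted p = 0.968). Cdh4 (log2 fold change 1.14, adjusted p = 0.00277) and Jup, which encodes plakoglobin (0.79, adjusted p = 0.000105), were also higher, and Ctnna2, a neural α-catenin, fell by 1.47 (adjusted p = 0.000199).

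Tjp1 encodes ZO-1, a scaffold that links claudins and connexins to actin (chr7:65296165-65527781, minus strand). It was higher in mSC than in nmSC by a log2 fold change of 0.52 (SE 0.17, adjusted p = 0.0221), the smallest of the called differences among the 9 genes, and the gates overlapped. The nmSC libraries held 52.7, 47.2, 52.9 and 64.2 CPM, the allSC libraries 72.0, 57.8, 67.8 and 60.9 CPM, and the mSC libraries 92.6, 85.3, 85.9 and 47.6 CPM. The mSC libraries 1 to 3 lay above every other library, and mSC 4, in which transcripts as long as that of Tjp1 (7049 bases) were low, lay among nmSC. The call was lost without nmSC 2 (adjusted p = 0.0739), mSC 1 (0.0531), mSC 2 (0.0586) or mSC 3 (0.0594). Without mSC 1 and mSC 4 together the fold change was 0.65 (SE 0.14, adjusted p = 0.000686). With the library size alone it was -0.02, at 0.70 above the median of all genes, and with a library size without the 50 most counted genes it was 0.17 and not called (adjusted p = 0.441). For mSC against allSC it was 0.27 (adjusted p = 0.295), and 0.47 (adjusted p = 0.00911) without mSC 4.

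Mpdz encodes MUPP1, a scaffold with many PDZ domains that binds claudins (chr4:81278500-81442815, minus strand). It rose in mSC against nmSC by a log2 fold change of 1.11 (SE 0.17, adjusted p = 3.55e-05). Libraries of nmSC held 57.5, 84.1, 79.3 and 82.3 CPM, the allSC libraries 129.8, 114, 105 and 102 CPM, and the mSC libraries 207, 169, 167 and 109 CPM. All mSC and allSC libraries lay above all nmSC libraries, while mSC 4 lay within the allSC range. The fold change was 0.53 (adjusted p = 0.0355) for mSC against allSC and 0.57 (adjusted p = 0.0362) for allSC against nmSC. With the mouse number as a replicate block, neither passed (adjusted p = 0.0572 and 0.0625), nor with the library size alone (0.336 and 0.250). The former was lost without allSC 2 (adjusted p = 0.0817), allSC 3 (0.0985), allSC 4 (0.0812), mSC 1 (0.0757), mSC 2 (0.0696) or mSC 3 (0.0632), and the latter when any of its 8 libraries was left out, with a highest adjusted p of 0.130. Without mSC 1 and mSC 4 together, mSC against allSC gave 0.60 (adjusted p = 0.00496).

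Pard3 encodes Par-3, a polarity protein found at the contact of Schwann cell and axon (chr8:127063893-127612286, plus strand). No difference was detected with TMM factors. In nmSC the libraries held 21.4, 25.9, 17.9 and 27.3 CPM, in allSC 20.8, 20.03, 22.0 and 23.0 CPM, and in mSC 24.5, 25.1, 21.8 and 22.1 CPM. The gates overlapped throughout, and the log2 fold change of mSC against nmSC was 0.01 (95% interval -0.29 to 0.32, adjusted p = 0.943). With the library size alone it was -0.55 (adjusted p = 0.00512), which was 0.18 above the median of all genes. Its relative Pard3b fell by 0.67 (adjusted p = 0.00102), from 28.3 ± 1.69 to 17.8 ± 3.22 CPM.

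Of the 14 other tight junction genes, 13 passed the filter, 4 higher and 5 lower in mSC than in nmSC. The calls made up 69.2% of the 13, beside 40.5% of all genes tested. Marveld3, a membrane protein of tight junctions, rose by 3.08 on the log2 scale (SE 0.18, adjusted p = 9.03e-11), from 4.06 ± 0.777 to 34.5 ± 3.54 CPM. Jam2, a junctional adhesion molecule, rose by 1.83 (adjusted p = 2.93e-08). Tjp3, Cgnl1 and Cgn, scaffolds of epithelial tight junctions, fell by 1.90, 1.53 and 1.20 (adjusted p = 0.00281, 0.00573 and 0.00950), all from a mean under 6 CPM in nmSC. Their mSC means were 0.542, 1.74 and 0.840 CPM, with Tjp3 and Cgn near the floor of 3 counts given above.

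Of the 21 other polarity and scaffold genes, 20 passed the filter, 8 higher and 3 lower in mSC than in nmSC. The calls made up 55% of the 20, beside 40.5% of all genes tested. Magi2, a membrane scaffold of the MAGUK family, rose by 2.31 (SE 0.15, adjusted p = 4.45e-10), from 13.5 ± 2.52 to 67.2 ± 9.23 CPM. Pard6g, a partner of Par-3, rose by 1.47 (adjusted p = 2.74e-07). Lin7b rose by 2.29 (adjusted p = 0.000325) at means of 0.542 and 2.74 CPM. Magi3 and Magi1, relatives of Magi2, fell by 0.59 and 0.57 (adjusted p = 0.0210 and 0.00585). The median log2 fold change was 0.23 over this list, -0.62 over the tight junction list, -0.19 over the adherens junction list, -1.08 over the claudins and -0.54 over the connexins and pannexins, all without the 9 genes, beside -0.16 over all genes tested.

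**Figure D4:**
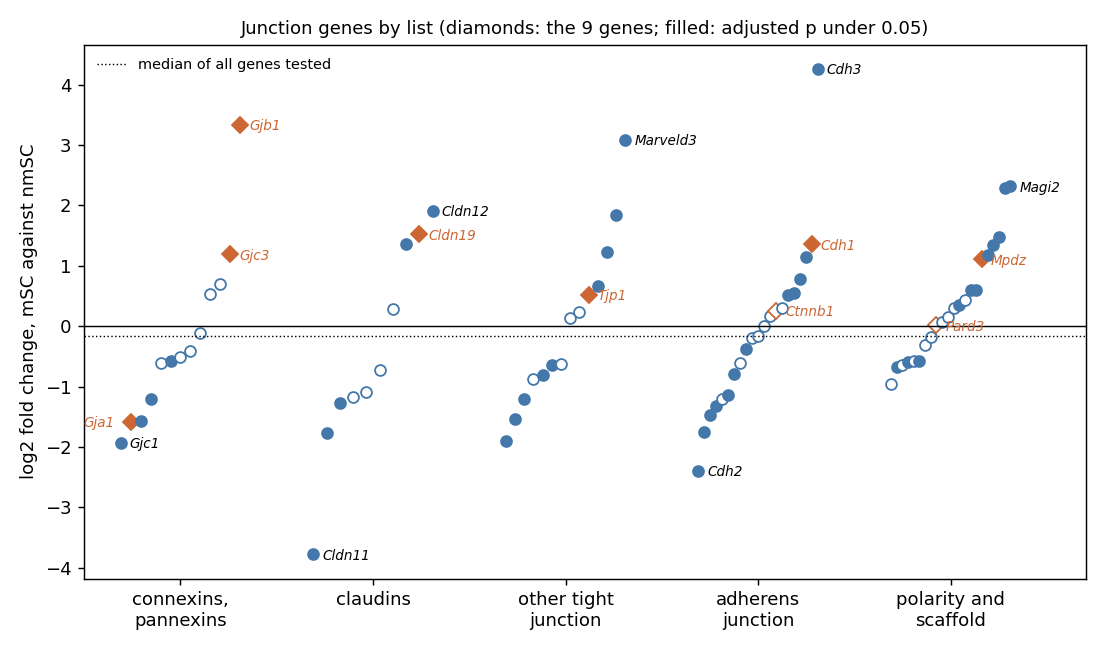
Log2 fold change of mSC against nmSC (vertical axis) for every tested gene of the 5 junction lists (columns), sorted within each list, with diamonds for the 9 genes, circles for the others and filled symbols for an adjusted p under 0.05. Every list has called genes on both sides of 0, from Cdh3 at 4.26 down to Cldn11 at -3.78, and the dotted line marks the median of all genes tested at -0.16.

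The allSC gate, which holds the cells of both side scatter gates, had a mean between nmSC and mSC for 8 of the 9 genes, Pard3 being the exception. Placed on a scale from nmSC (0) to mSC (100%), the allSC mean of CPM lay at 39.0% for Cldn19, 42.3% for Mpdz, 42.9% for Gjc3, 43.9% for Tjp1, 45.4% for Gjb1, 47.5% for Ctnnb1, 59.2% for Cdh1 and 62.2% for Gja1. Among libraries that share a number in the sample titles, the position ran from 38.4% to 51.7% for Gjc3 and from 29.3% to 50.1% for Cldn19. Whether libraries with the same number came from the same mouse is not stated. For Gjb1 the position ran from 37.0% to 101%, the highest for number 1, and for Cdh1 from 35.8% to 154%, the highest for number 4. For Ctnnb1, whose gates overlapped, it ran from -68.2% to 72.6%, and allSC lay between the gates for 2 of 4 numbers, so that its position cannot be read.

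Compared per length, as mean RPKM on the union of exons, the order of levels in mSC was Gjc3 (430.2), Cldn19 (214), Ctnnb1 (97.9), Cdh1 (74.2), Gjb1 (65.2), Mpdz (13.1), Tjp1 (9.97), Pard3 (1.61) and Gja1 (0.363). The libraries of Ctnnb1, Cdh1 and Gjb1 overlapped in mSC, as did those of Mpdz and Tjp1. In nmSC Gjc3 again led (188), followed by Ctnnb1 (82.3) and Cldn19 (74.7), whose libraries overlapped, and Cdh1 (29.0). Tjp1 (6.95), Gjb1 (6.48) and Mpdz (6.10) could not be ordered there, nor could Pard3 (1.60) and Gja1 (1.10). In allSC the order was that of mSC, and there only the libraries of Mpdz and Tjp1 overlapped. The order between neighbours depends on the length that is used, but Gjc3 was first and Gja1 last with the longest and with the mean transcript length too.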

How the data were processed

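Smart-Seq2 libraries from FACS-sorted Schwann cells were sequenced. After adapter and quality trimming, alignment used STAR 2.6.1c and counting per gene used featureCounts, and the authors deposited raw counts for 25700 genes. The study's methods name a human assembly, but the labels name GRCm38.p5 and the gene identifiers are those of mouse. The counting options for strand, multiple mapping and overlap are not given in the sources used here.

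Here the counts of 12 libraries, 4 per gate, were tested with edgeR 4.0.16 (R 4.3.3) by the quasi-likelihood test with TMM factors, filterByExpr by gate and Benjamini-Hochberg adjustment over all 18597 genes tested, without a block. CPM used TMM factors, and RPKM was computed on the union of exons of GENCODE M21 (GRCm38), to which 25664 identifiers matched. The study's methods state no test for these bulk libraries. According to the paper, samples within each gate grouped by sex in pairs. Sex was not a factor in the fit, and its part in the spread within gates was not tested. Alternatives were DESeq2 1.42.0, other scalings and filters, the gates compared alone, a replicate block, other gene lengths and each library left out. The exclusion of mSC 1 and mSC 4 together, the removal of a transcript length trend and the alternatives for ratios and for the position of allSC were chosen after seeing the data. Scripts were checked on simulated counts.

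The number in the sample titles, shared by 1 library of each gate, was taken as the mouse. The study does not say whether the 3 gates were sorted from the same mice. The deviations of libraries with the same number from their gate means correlated at -0.23 to 0.25 over genes. A total of 3 counts in 1 library, the limit that a count of 0 allows, was 0.177-0.367 CPM on the library size and covers counting error only. The members and gene lists were chosen with earlier results of these data known. The genes named were the 9 members, up to 3 other called genes per list and direction with the largest change and a mean of at least 1 CPM, the 3 nearest profiles per member and marker genes. Genes outside this rule are said to be so. Some genes that meet this rule are not reported here.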

Additional observations from a re-analysis of the deposited data

Results flagged for a closer look

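Within each gate of 4 libraries, the highest and lowest value of each of the 9 genes was compared with the spread of the other 3, which made 27 groups, and chance flags about 1 in 20 groups. Gjb1 in nmSC replicate 1 stood at 15.6 CPM, above the 9.05-9.88 CPM of the other nmSC libraries. Tjp1 in mSC replicate 4 stood at 47.6 CPM, below the 85.3-92.6 CPM of the other mSC libraries. In the latter library, transcripts over 5000 bases were low relative to those under 2000 bases, by -0.92 on the log2 scale, and the part of this shift in the Tjp1 value was not tested.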

How the results depend on the processing

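The differences of Gjb1, Cldn19 and Cdh1 between mSC and nmSC kept their direction and their call in all 18 alternatives, as did those of Gjc3, Gja1 and Mpdz. With the library size alone, 11864 genes were called for mSC against nmSC and 2951 for allSC against nmSC, and 3 of the 9 genes passed for mSC against allSC. Ctnnb1 changed sign in the 3 comparisons with the library size alone (-0.30, -0.17 and -0.13) and without the 50 most counted genes (-0.11, -0.077 and -0.030). Tjp1 changed sign with the library size alone (-0.023, -0.019 and -0.0034). Pard3 changed sign for mSC against nmSC (-0.55 and -0.36) and mSC against allSC (-0.18 and -0.083) in these scalings, and for mSC against nmSC without nmSC 1, nmSC 3, mSC 1 or mSC 2, with a range of -0.090 to 0.11 when 1 library was left out. These scalings differ from TMM by a constant in each library, which moves all genes together; the cause of the other changes was not tested.

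Leaving out 1 library at a time gave 3 to 7 of the 9 genes for mSC against allSC, the lowest without mSC 2, and 2 to 4 other connexins and pannexins. With the mouse number as a replicate block, 7, 4 and 5 of the 9 genes passed in the 3 comparisons, and beyond the Mpdz calls given above it changed no call of the 9 genes. Of 27 levels, 2 stayed within 1 SD on the mean transcript length and 12 on the longest transcript, and the ratio of Gjc3 to Gjb1 became 52.6, 15.3 and 12.8 in nmSC, allSC and mSC on the mean transcript length. DESeq2 called 7928 genes for mSC against nmSC and Cdh1 for mSC against allSC (adjusted p = 0.0365), as did its size factors in edgeR (0.0473) and removal of the length trend (0.0195).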

Other observations

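The profiles nearest to those of the scaffold and catenin genes over the 12 libraries were as follows. For Tjp1 they were Bbof1 (root mean square difference 0.0700 on the log2 scale), Armh3 (0.0784) and Gm20388 (0.0919). For Mpdz they were Zbtb46 (0.106), Ivns1abp (0.115) and Padi2 (0.117), which encodes a peptidylarginine deiminase. For Ctnnb1 they were Eif4b (0.0680), a translation initiation factor, Arfgap1 (0.0714) and Capn7 (0.0730), a calpain protease. For Pard3 they were Ppid (0.0765), a cyclophilin, Rnf168 (0.0822), a ubiquitin ligase of the DNA damage response, and Tmem39a (0.0999).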
